A study of Mus musculus with 12 samples.

Results

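The comparison of both Cldn7 hairpins together against the control asked which genes changed when Cldn7 was lowered, whichever of the hairpins was used. All 12 of the 12 libraries of the study entered it: 4 libraries with hairpin 1, 4 with hairpin 2 and 4 controls, numbered 1 to 4 in each group. RNA was sequenced from tumour organoids, small pieces of tumour epithelium taken from the mammary glands of MMTV-Neu mice. These mice carry the Neu (Erbb2) oncogene under the promoter of mouse mammary tumour virus, which is active mainly in mammary epithelium. The hairpin groups are labelled sh1Cldn7 knockdown and sh2Cldn7 knockdown; the control is labelled WT, but it came from the same tumour model and carried a non-targeting hairpin, so all groups share the oncogene, the lentivirus and the selection. Per the labels, virus was given at a multiplicity of infection of 20, puromycin at 3 µg/ml for 3 days selected infected cells, the medium held 2.5 nM FGF2, and organoids were in collagen I for 5 days before RNA was taken. The sources used here give neither the hairpin sequences nor the age of the mice. The effect measured was the mean of both hairpin groups minus the control, with the replicate number as a block, that is, each library was compared with the libraries of its own number.

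Claudin 7 is a membrane protein of epithelial cells that belongs to the tight junction family but lies largely along the lateral membrane, where it binds EpCAM. Claudins set which ions and molecules pass between cells, and claudin 7 is expressed in the luminal cells of the mammary duct. A short hairpin RNA is cut into an interfering RNA that breaks down its matching messenger, and it can also lower other messengers through partial matches, which is why another hairpin of different sequence is used beside it. Genes that change in the same direction with both hairpins are the ones such a design looks for.

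Total counts were 34988358 to 44645514 in replicates 1 and 2 and 68581024 to 76329473 in replicates 3 and 4, and 17025 of 25861 genes had enough counts to be tested. Libraries were more alike within a number than within a group: after subtraction of group means, libraries of 1 number correlated at 0.855 to 0.916, and 12 of 12 libraries were nearest to their own number. Whether replicates are separate animals or separate cultures is not in the labels, and p-values therefore cover the spread of these libraries alone, which may be technical spread. The labelled epithelial cell type was checked against its markers: all 14 luminal markers were detected, with a summed level of 7859 to 10841 CPM (each gene's counts relative to the scaled library total) over the libraries. Erbb2, the oncogene of these mice, was the largest member of this sum in every library. It was at 2960, 3569, 5269 and 6548 CPM in control replicates 1 to 4, so the sum does not measure luminal cells alone. Basal markers summed to 868 to 3661 CPM. Fibroblast markers summed to 839 to 13733 CPM. In such mixed cultures fewer cells of a type and less RNA per cell cannot be told apart.

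Over both hairpins 304 of 17025 genes (1.79%) passed the threshold, an adjusted p under 0.05 in edgeR's quasi-likelihood test, adjusted over the tested genes by Benjamini-Hochberg. Of these, 143 (0.84% of genes tested) were higher and 161 (0.946%) were lower with the hairpins. The changes were mostly small: 27 genes changed by more than 2-fold, 22 of them higher, and 210 changed by less than 1.5-fold. The median size was 0.39 on the log2 scale, against 0.11 over all genes tested. Called genes were also more abundant, with a median level of 45.9 CPM against 19.5 CPM. The number of calls depended on single libraries. It was 39 without control replicate 4, 54 without control replicate 1 and 93 without control replicate 3, and it was 554 without hairpin 2 replicate 3. Without the replicate block 1 gene, Cldn7, passed, while 406 had an unadjusted p under 0.05, and the biological coefficient of variation was 0.648 without the block and 0.141 with it.

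**Figure D1:**
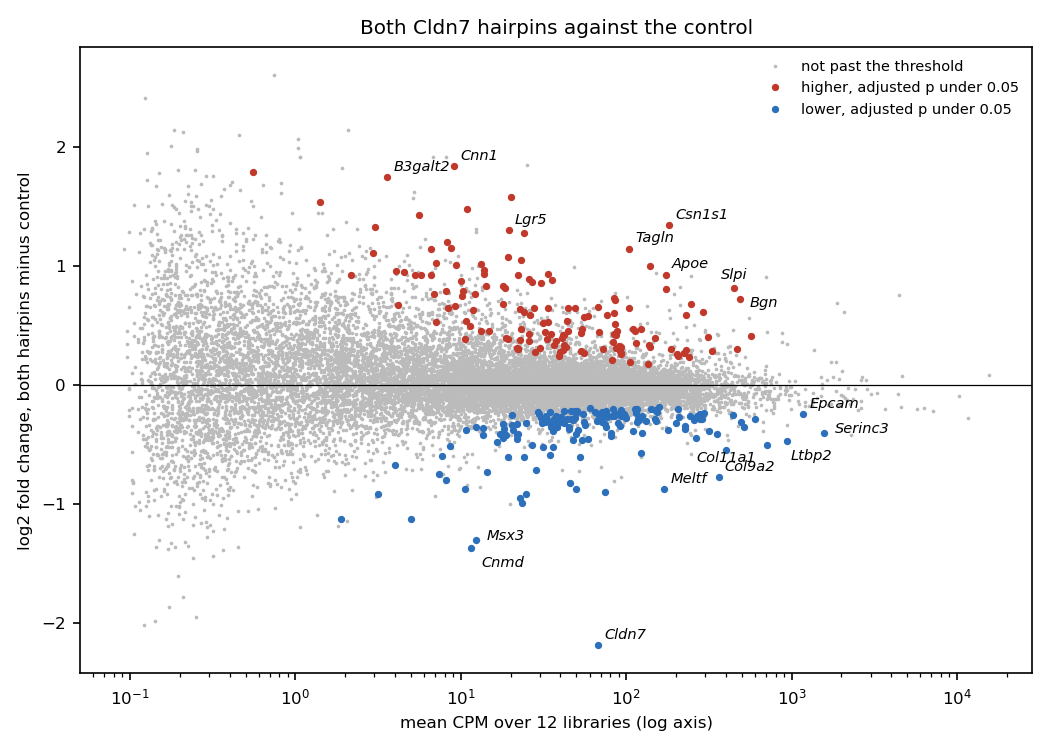
Change of each of the 17025 genes tested over both hairpins (y axis, log2 fold change against the control) by its mean level over the 12 libraries (x axis, CPM, log axis). Each point is a gene, and the 143 genes past the threshold as higher are red and the 161 as lower blue; Cldn7 stands alone at the bottom at -2.18, while most red and blue points lie within 1 log2 unit of 0.

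Cldn7 itself, the gene both hairpins target, was at 144, 136, 186 and 101 CPM in control replicates 1 to 4, 31.1, 30.03, 44.2 and 29.01 CPM with hairpin 1 and 27.4, 25.4, 34.7 and 26.1 CPM with hairpin 2. All 8 hairpin libraries were below all 4 controls, and the highest of them was hairpin 1 replicate 3. The log2 fold change was -2.18 ± 0.07, or 22% of the control level, at an edgeR adjusted p of 1.63e-07. The values were -2.07 with hairpin 1 and -2.30 with hairpin 2, and the interval of their difference, -0.23 (95% interval -0.41 to -0.05), did not reach 1.5-fold. An exact two-sided permutation of which library of each number is the control gave p = 0.0123, the smallest of its 81 arrangements.

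Among the 304 genes, 17 were higher in each of the 8 hairpin libraries than in each of the 4 controls and 10 were lower in this way, Cldn7 included, while 277 overlapped between the groups. Over all genes tested, 0.176% were above and 0.182% below without overlap. Within replicate numbers the groups were more separate. In 265 of the 304 genes (87.2%) every hairpin library was on the same side of the control of its own number, against 8.02% of all genes tested. Each control stands in 2 of these 8 pairs. The 304 genes were chosen on these same libraries with the replicate number as a block, which favours a high share, so it is a description only.

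In each of the 12 fits that left out 1 library, 23 genes stayed past the threshold, of which 14 were higher (Rab21, C4b, Fam172a, Myadm, Ube2h, Adgra3, Tvp23b, Mtmr3, Csrp1, Retreg3, Gpr153, Col4a2, Csn1s1 and Atxn1l) and 9 lower (Cldn7, Bglap3, Meltf, Scrg1, Scin, Opa1, Mogat1, Slc35d3 and Itgb3). Of the 23, 18 were also called when both hairpins were fitted as 1 group and by limma-voom. The hairpins differed, by the test of hairpin 2 minus hairpin 1, in C4b, Meltf, Opa1, Mogat1 and Itgb3 among them. In all, 117 of the 304 genes were called in at least 6 of these 12 fits.

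Rab21, a small GTPase of early endosomes that carries integrins back to the membrane, was at 39.6, 38.2, 37.1 and 51.9 CPM in control replicates 1 to 4, 55.1, 56.1, 54.6 and 76.6 CPM with hairpin 1 and 56.6, 57.8, 60.2 and 78.5 CPM with hairpin 2. Every hairpin library lay above every control, and replicate 4 was highest in each group. Its log2 fold change was 0.57 ± 0.04 (edgeR adjusted p = 0.000733), that is, 0.54 with hairpin 1 and 0.60 with hairpin 2. Myadm, a membrane protein of lipid rafts that was first found in differentiating myeloid cells, was at 109, 92.4, 160.1 and 104 CPM in control replicates 1 to 4, 205, 181, 279 and 192 CPM with hairpin 1 and 185, 166, 201 and 201 CPM with hairpin 2. Again no hairpin library reached down to a control, although control replicate 3 came close. Its log2 fold change was 0.81 ± 0.08, that is, 0.89 with hairpin 1 and 0.72 with hairpin 2. Ube2h, an E2 enzyme that passes ubiquitin to target proteins, was at 90.6, 99.4, 93.2 and 106 CPM in the controls and at a lowest, median and highest of 122, 135 and 147 CPM in the hairpin libraries; 15.8% of its exon sequence in windows of 50 bases occurs in other genes, so its counts may be shared. Its groups did not overlap, and the change was 0.47 ± 0.05, nearly the same with hairpin 1 (0.49) and hairpin 2 (0.45).

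Mtmr3, a phosphatase of phosphoinositides on endosomes and autophagosomes, had 64.7, 68.1, 65.6 and 84.5 CPM in the controls and 86.3, 93.2 and 105 CPM (lowest, median, highest) with the hairpins, with no overlap and a change of 0.42 ± 0.04. Fam172a was higher by 0.52 ± 0.05 (0.47 with hairpin 1 and 0.56 with hairpin 2), also without overlap. Tvp23b, a Golgi membrane protein, was higher by 0.72 ± 0.07 and Adgra3, an adhesion G protein-coupled receptor, by 0.51 ± 0.05. In both, the lowest hairpin library lay under the highest control, replicate 3 in each case. Csrp1, a LIM-domain protein that binds actin-bundling partners, was at 309, 262, 269 and 182 CPM in control replicates 1 to 4, 435, 345, 344 and 225 CPM with hairpin 1 and 427, 342, 371 and 230.3 CPM with hairpin 2. Its groups overlapped through replicate 4, which was low in every group, and within each number both hairpin libraries were above the control. Its change was 0.40 ± 0.04, that is, 0.39 with hairpin 1 and 0.41 with hairpin 2. Gpr153, an orphan receptor, changed by 0.59 ± 0.07.

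Whether the hairpins act alike was read from the interval of hairpin 2 minus hairpin 1, which uses no control library. In 204 of the 304 genes (67.1%) the 95% interval of that difference lay within 1.5-fold in either direction; this held for 61.5% of all genes tested, so the share is near the background. A small interval is easier for small changes: it held for 126 of 161 lower genes (78.3%), whose median change was -0.32, and for 78 of 143 higher genes (54.5%), whose median change was 0.57. Measured against the size of the change itself, 163 genes (93 higher and 70 lower) had a difference whose 95% interval lay within the size of the pooled change in either direction. The share over all genes tested was not computed for this bound. The hairpins differed, by the test of the difference itself, in 63 of the 304 genes, with the larger change in hairpin 2 in 54 of them, and 3.44% of all genes tested differed in that test. The 63 and the 204 genes overlap: 26 genes, 25 of them lower, differed in that test although their interval lay within 1.5-fold. For 3 genes, Polr2m, Tfb2m and Clec16a, the hairpins had opposite signs. Each hairpin against the control on its own called 124 genes (0.728%) for hairpin 1 and 981 (5.76%) for hairpin 2; these comparisons share the 4 control libraries. Of the 304 genes, 52 passed in both, 26 in hairpin 1 alone, 213 in hairpin 2 alone and 13 in neither alone.

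**Figure D2:**
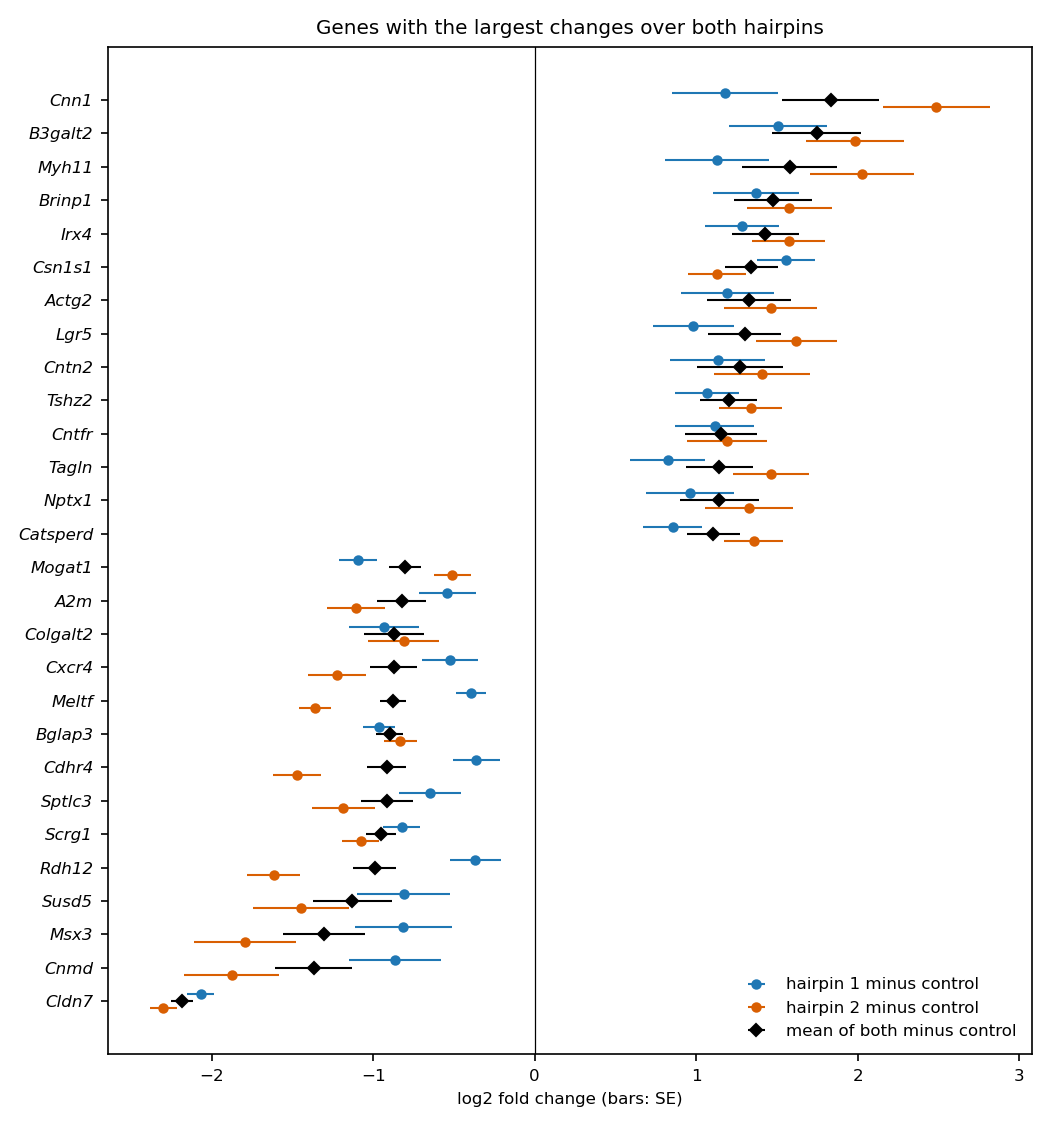
The 14 genes with the largest change in each direction among called genes averaging 2 CPM or more (y axis), with the log2 fold change against the control (x axis) for hairpin 1 (blue), hairpin 2 (orange) and the mean of both (black diamonds), bars being the standard error. Hairpin 2 lies farther from 0 than hairpin 1 for most genes, and Csn1s1, Mogat1, Bglap3 and Colgalt2 are those with the larger change for hairpin 1.

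The promoter windows of called genes are shown here for Myadm, a higher gene called in all 12 of those fits, and Dusp5, because they hold the CArG box, the site of serum response factor, which is known to drive many contractile and actin genes. Windows run from 250 bases before to 50 after a RefSeq start of the gene (GRCm38.p6, plus strand for both), and the match is in capitals. Such a start can lie inside the gene, as for Myadm, whose span begins at base 3289038 of chromosome 7. A gene was counted for a motif if any window of that gene held it. The Myadm window is chr7:3292778-3293077 and the Dusp5 window chr19:53528895-53529194.
Myadm: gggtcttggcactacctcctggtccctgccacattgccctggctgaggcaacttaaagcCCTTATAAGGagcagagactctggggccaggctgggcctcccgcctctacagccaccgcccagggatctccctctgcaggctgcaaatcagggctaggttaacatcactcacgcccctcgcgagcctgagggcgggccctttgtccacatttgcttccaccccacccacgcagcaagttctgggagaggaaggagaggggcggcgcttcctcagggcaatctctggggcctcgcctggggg
Dusp5: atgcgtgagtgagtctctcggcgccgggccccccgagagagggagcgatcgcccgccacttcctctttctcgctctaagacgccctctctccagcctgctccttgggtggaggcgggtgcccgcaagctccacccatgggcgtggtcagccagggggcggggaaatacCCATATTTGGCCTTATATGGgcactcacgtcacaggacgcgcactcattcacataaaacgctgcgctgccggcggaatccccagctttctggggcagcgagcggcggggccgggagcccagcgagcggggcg
The Myadm match starts 191 bases before the start used, and Dusp5 has 2 matches, the first 82 bases before its start. Dusp5, a phosphatase that switches off ERK in the nucleus, was at 11.9, 9.17, 10.6 and 4.59 CPM in the controls and 7.92, 12.96 and 16.2 CPM (lowest, median, highest) with the hairpins, a change of 0.50 ± 0.11; it was called in 2 of the 12 fits that left out 1 library, and 22.1% of its exon sequence overlaps a gene of the other strand. The box, searched on both strands, was in 3 of 112 higher genes with a window (2.68%; Nfix is the third), in 2 of 136 lower genes (1.47%; Fut8 and Ints6l) and in 1.62% of 12793 tested genes, so it was near the background. Other short motifs were also searched on both strands. TGANTCA, the AP-1 site, was in 6.25% of higher, 4.41% of lower and 7.00% of all genes. TATAAA was in 7.14%, 11.03% and 10.1% in that order. CACGTG was in 10.7%, 11.03% and 10.8%. GGAATG, the TEAD site, was in 19.6%, 19.1% and 15.0%, and GGGCGG in 75.0%, 72.1% and 63.3%, so both were more frequent in higher and in lower genes than in all genes, a difference that was not tested. The window table holds no entry for Tagln, Myh11, Actg2, Lgr5 and Scrg1.

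Contractile genes were among the largest rises. Of 23 tested genes of the smooth muscle contractile list, 5 rose (21.7%, against 1.79% of all genes), none fell, and 19 of the 23 had a positive value. The median change was 0.32, against 0.00 over all genes. The lists, here and below, were chosen with earlier results of these data known, which favours high shares. In 1 of the 5 calls the interval of hairpin 2 minus hairpin 1 lay within 1.5-fold. Cnn1, or calponin, which binds actin and myosin in smooth muscle and myoepithelium, was at 1.78, 4.44, 6.57 and 0.836 CPM in control replicates 1 to 4, 6.09, 10.3, 9.88 and 1.96 CPM with hairpin 1 and 6.02, 23.5, 28.2 and 10.2 CPM with hairpin 2. Control replicate 3 stood above hairpin libraries of other numbers, and within every number both hairpins were above the control. Its change of 1.83 ± 0.30 combined 1.18 with hairpin 1 and 2.49 with hairpin 2. Myh11, smooth muscle myosin heavy chain, changed by 1.58 ± 0.29, Actg2, enteric smooth muscle actin, by 1.33 ± 0.26, and Tagln, the actin-binding transgelin, by 1.14 ± 0.21. The level of Actg2 was low, 1.12 to 1.77 CPM in the controls and 1.72 to 6.57 CPM with the hairpins. Myh11 was at 4.61, 7.79, 13.7 and 5.10 CPM in control replicates 1 to 4 and 17.5, 23.3, 26.0 and 4.63 CPM with hairpin 1. Hairpin 1 replicate 4 was thus below its control, while hairpin 2 had 13.2, 40.7, 67.0 and 18.1 CPM. Tagln was at 40.4, 91.6, 55.02 and 44.3 CPM in control replicates 1 to 4, 106, 159, 73.8 and 64.3 CPM with hairpin 1 and 85.6, 186, 197 and 149 CPM with hairpin 2, so both hairpins were above the control in all 4 numbers although the groups overlapped. Exons of other genes on the opposite strand cover 60.9% of the Tagln exons; one of them, Pcsk7, was at 0.00 ± 0.05. Acta2, smooth muscle actin, had a change of 0.82 ± 0.20 that missed the threshold (edgeR adjusted p = 0.0653).

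These contractile calls rested on few libraries. The list had 1 call without control replicate 4, 1 without control replicate 1, 2 without hairpin 1 replicate 2, control replicate 3 or the fourth replicate of hairpin 2, and 6 without hairpin 2 replicate 1, 2 or 3, with 1 lower member besides when replicate 1 or 3 was left out. Csrp1 alone was called in all 12 such fits, Cnn1 in 10, Tagln in 7, Myh11 in 5 and Actg2 in 3.

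Regulators and surface proteins of basal, or myoepithelial, cells were among the rises. Of 31 tested genes of that list, 6 rose (19.4%, against 1.79% of all genes) and none fell. In the list 26 were positive, and the median was 0.51, with 0.37 for hairpin 1 and 0.70 for hairpin 2. The interval of hairpin 2 minus hairpin 1 lay within 1.5-fold in 1 of the 6 calls. Irx4, a homeobox transcription factor, was at 1.32, 7.56, 2.13 and 1.04 CPM in control replicates 1 to 4, 4.79, 12.1, 3.92 and 3.88 CPM with hairpin 1 and 4.36, 14.7, 6.98 and 4.43 CPM with hairpin 2; all 8 hairpin libraries were above the control of their number, and its change was 1.43 ± 0.21. Lgr5, a receptor of R-spondins that marks stem cells in several epithelia, was at 3.63, 12.1, 11.4 and 10.8 CPM in control replicates 1 to 4, 11.6, 12.3, 20.1 and 31.7 CPM with hairpin 1 and 15.2, 19.2, 44.3 and 41.6 CPM with hairpin 2. Control replicate 1 was far below the other controls, and control replicate 2 lay between hairpin 1 replicates 1 and 2. Its change was 1.30 ± 0.23 (0.98 with hairpin 1 and 1.62 with hairpin 2). Cdh3, or P-cadherin, an adhesion molecule of basal cells, changed by 0.86 ± 0.14, Igfbp3, which binds insulin-like growth factors, by 0.73 ± 0.13, and Jag2, a Notch ligand, by 0.61 ± 0.12. Of the 8 basal marker genes, 7 had a positive value, Cnn1 and Myh11 were called and Krt5 (0.90 ± 0.28, edgeR adjusted p = 0.129), Krt14 (0.43 ± 0.23) and Trp63 (0.47 ± 0.11, adjusted p = 0.0587) were not. The negative value was that of Oxtr, the oxytocin receptor (-0.32 ± 0.14, edgeR adjusted p = 0.276), which was at 144, 73.1, 93.1 and 185 CPM in control replicates 1 to 4, 105, 55.6, 106 and 138 CPM with hairpin 1 and 93.02, 48.5, 134 and 111 CPM with hairpin 2. Both hairpins were below the control for Oxtr in replicates 1, 2 and 4 and above it in replicate 3. Without control replicate 4 none of the 31 regulators and surface proteins passed, without control replicate 1 or 3 only 1 rose (and 1 fell without control replicate 3), and without hairpin 1 replicate 1 or 4, or hairpin 2 replicate 4, there were 2.

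**Figure D3:**
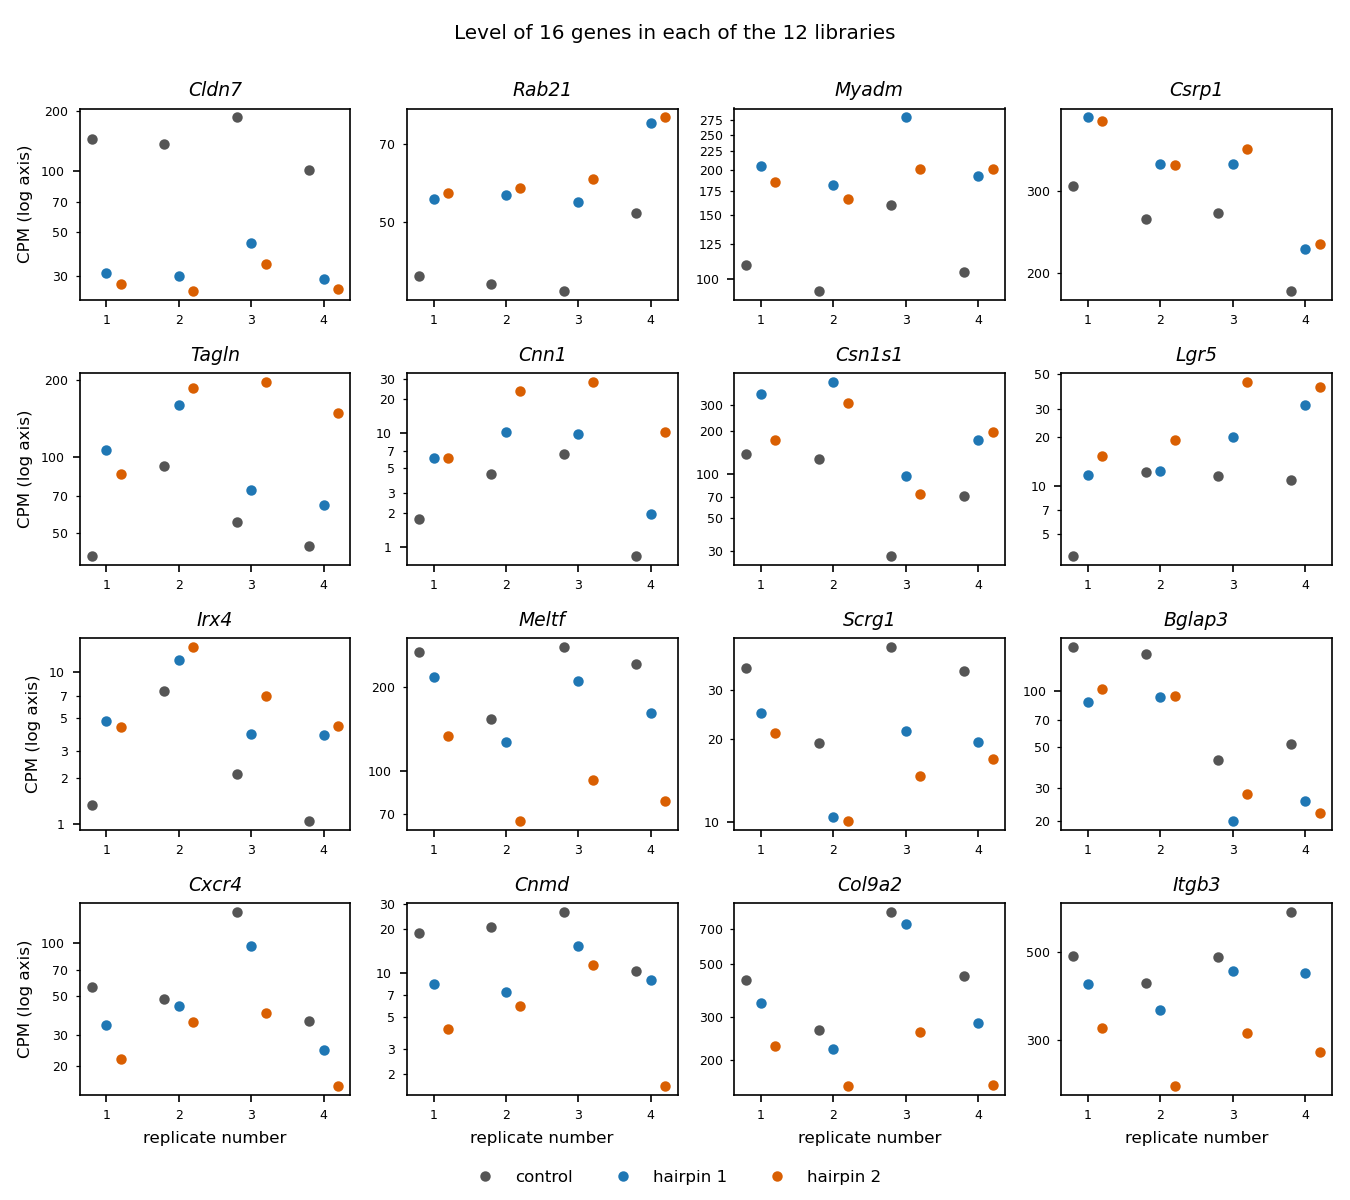
Levels of 16 genes (one panel each, CPM on a log axis with its own range) in the 12 libraries, by replicate number (x axis) and group (grey control, blue hairpin 1, orange hairpin 2; each point is 1 library). Rab21, Myadm and Csrp1 show both hairpins above the control within each number, Cldn7, Bglap3 and Scrg1 both below, and in Meltf, Col9a2 and Itgb3 hairpin 2 lies lower than hairpin 1.

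Markers of stromal cells were measured beside these groups. Of 12 fibroblast markers 1, Col14a1, rose and 10 were positive (median 0.43); in replicates 1 and 2 their summed level was 2132 to 2749 CPM in the controls, 2162 to 3162 CPM with hairpin 1 and 3044 to 3245 CPM with hairpin 2, and in replicates 3 and 4 it was 839 to 6194 CPM in the controls, 988 to 7790 CPM with hairpin 1 and 2623 to 13733 CPM with hairpin 2. Of 8 tested pericyte and vascular smooth muscle markers 1, Pdgfrb, rose and the median was 0.33. Basal markers in replicates 1 and 2 summed to 1690.4 to 3661 CPM in the controls, 2179.8 to 3384 CPM with hairpin 1 and 2421 to 3406 CPM with hairpin 2, where the highest value of each group was replicate 2 and was higher in the control than with either hairpin. In replicates 3 and 4 they summed to 868 to 881 CPM in the controls, 1179 to 1385 CPM with hairpin 1 and 1922 to 2605 CPM with hairpin 2. None of 9 endothelial, 14 macrophage, 13 lymphocyte, 4 adipocyte, 8 Schwann cell or 10 skeletal muscle markers tested passed the threshold. The part of these cell types in the rise of contractile and matrix genes was not tested.

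Secreted proteins of the mammary epithelium were among the rises. In the milk protein and lactation list, 3 of 28 tested genes rose (10.7%, against 1.79% of all genes), none fell, and the median was 0.16. In none of the 3 did the interval of hairpin 2 minus hairpin 1 lie within 1.5-fold. Csn1s1, alpha-S1-casein, was at 138, 127, 27.6 and 71.1 CPM in control replicates 1 to 4, 359, 430.0, 97.95 and 173 CPM with hairpin 1 and 171, 308, 73.3 and 195 CPM with hairpin 2. Replicate 3 was lowest in every group, and the control was below both hairpins in each number. The change was 1.34 ± 0.16 (edgeR adjusted p = 0.00708), or 2.54-fold, and was called in all 12 fits that left out 1 library. Not every milk protein followed: Csn3, another casein, was at -0.13 ± 0.21 and Lalba, alpha-lactalbumin, at -0.40 ± 0.17 (edgeR adjusted p = 0.264). Both were picked after their values were seen, and 17 of the 28 genes of the list had a positive value and 11 a negative one. Btn1a1, butyrophilin of the milk fat globule, changed by 0.65 ± 0.13, from 0.10 with hairpin 1 and 1.2 with hairpin 2, and Wfdc18, a small secreted protein, by 0.41 ± 0.08, from 0.01 with hairpin 1 and 0.81 with hairpin 2, so the change in both was near 0 with hairpin 1. Without control replicate 1, 3 or 4, or hairpin 1 replicate 1, 2 or 3, Csn1s1 was the 1 call left in the list. Slpi, an inhibitor of leukocyte elastase, was at 219, 387, 293 and 271 CPM in the controls and 400.2, 464 and 966 CPM (lowest, median, highest) with the hairpins. Its groups did not overlap and its change was 0.82 ± 0.17, called in 3 of the 12 fits.

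Genes best known from cartilage and bone had the highest share of falls among the 27 function lists. The lists were chosen with earlier results of these data known, so this rank is a description only. Of 34 tested genes of that list 5 fell (14.7%, against 1.79% of all genes called) and none rose. The list's median was -0.04 and 17 members were positive, and 29 members did not pass the threshold. In 3 of the 5 calls the interval of hairpin 2 minus hairpin 1 lay within 1.5-fold. Scrg1, a secreted protein that stimulates chondrogenesis, was at 35.8, 19.3, 42.7 and 35.1 CPM in control replicates 1 to 4, 24.7, 10.4, 21.3 and 19.5 CPM with hairpin 1 and 21.05, 10.1, 14.7 and 16.9 CPM with hairpin 2. Each hairpin library was below its control, while control replicate 2 was as low as hairpin libraries of other numbers. Its change was -0.95 ± 0.09 (edgeR adjusted p = 0.0024), that is, -0.82 with hairpin 1 and -1.08 with hairpin 2. Bglap3, a relative of the bone protein osteocalcin, was at 172, 159, 42.6 and 51.7 CPM in control replicates 1 to 4, 87.3, 92.8, 19.9 and 25.5 CPM with hairpin 1 and 102, 93.4, 27.8 and 22.1 CPM with hairpin 2. Replicates 1 and 2 were higher than 3 and 4 in every group, and both hairpins were under the control in each number. It changed by -0.90 ± 0.08, and 17.5% of its sequence in windows of 50 bases is shared with other genes.

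Of the other lower genes in the list, Cnmd, or chondromodulin, an inhibitor of vessel growth in cartilage, was at 18.7, 20.6, 26.3 and 10.3 CPM in control replicates 1 to 4, 8.35, 7.34, 15.3 and 8.96 CPM with hairpin 1 and 4.11, 5.93, 11.3 and 1.66 CPM with hairpin 2. Its fall of -1.37 ± 0.24 was the largest after Cldn7 among the named genes. Col9a2, a chain of collagen IX, was at 429, 266, 822 and 447 CPM in the controls and changed by -0.35 with hairpin 1 and -1.20 with hairpin 2 (-0.78 ± 0.13 over both). Col11a1, a chain of collagen XI, was at 738, 763, 1290.0 and 739 CPM in the controls, with a high replicate 3, and at a lowest, median and highest of 459, 579 and 1058 CPM with the hairpins. It changed by -0.51 ± 0.09. Members that define cartilage did not pass: Col2a1 was at 0.26 ± 0.35 (adjusted p = 0.757), Acan at 0.04 ± 0.43, Comp at -0.60 ± 0.17 and Sox9 at 0.28 ± 0.07 (adjusted p = 0.0631) in the same edgeR fit. The list had 2 calls, Scrg1 and Bglap3 among those steady in all fits, without control replicate 1, 3 or 4 or without hairpin 1 replicate 1 or 2, 3 without control replicate 2 or hairpin 1 replicate 4, and 6 without hairpin 2 replicate 1.

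Matrix genes moved in both directions. The share called was 12.2% of collagens, 6.25% of the basement membrane list and 8.70% of the proteoglycan list, against 1.79% of all genes tested. Of 41 collagens tested, Col14a1 (1.07 ± 0.20) and Col4a2 (0.68 ± 0.08) rose and Col11a1, Col9a2 and Col4a6 (-0.31 ± 0.07) fell. Col4a2, a main chain of the basement membrane network, was at 118, 137, 98.3 and 345 CPM in control replicates 1 to 4, 155, 209, 152 and 602 CPM with hairpin 1 and 176, 224, 200.2 and 542 CPM with hairpin 2. Replicate 4 was highest in every group, and within each number both hairpins were above the control. In the basement membrane list 1 of 48 rose and 2 fell; Itgb3, integrin beta 3, which pairs with alpha v to bind vitronectin and fibronectin, was at 488, 418, 486 and 629 CPM in control replicates 1 to 4, 416, 357, 446 and 443 CPM with hairpin 1 and 321, 231, 313 and 281 CPM with hairpin 2. It changed by -0.55 ± 0.07, that is, -0.28 with hairpin 1 and -0.82 with hairpin 2, a difference of -0.54 (95% interval -0.73 to -0.35) (adjusted p = 0.0103 by edgeR). Of 46 genes for proteoglycans and their sugar chains, Bgn (biglycan, 0.72 ± 0.13), Has2 (hyaluronan synthase, 0.67 ± 0.12) and Prelp (0.28 ± 0.06) rose and Chst11, a chondroitin sulfotransferase, fell (-0.46 ± 0.08). Bgn ranged over 90.5 to 855 CPM in the controls, and replicate 4 was highest there. The proteoglycan list had no call without control replicate 4.

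In the lists of ligands and receptors few members were called. Values were positive for 16 of 31 chemokine and 35 of 52 WNT genes tested. They were positive for 15 of 19 IGF and 18 of 26 Notch genes, against 49.4% of all genes tested, and no list was tested as a whole. The share called was 3.23% of the chemokine, 5.77% of the WNT, 15.8% of the IGF and 7.69% of the Notch list. It was 4% of slits and netrins and 5.26% of ephrins and Eph receptors, against 1.79% of all genes tested. Cxcr4, the receptor of the chemokine Cxcl12, was at 55.96, 47.8, 149 and 36.04 CPM in control replicates 1 to 4, 34.3, 43.5, 95.7 and 24.8 CPM with hairpin 1 and 21.9, 35.5, 40.2 and 15.4 CPM with hairpin 2. Replicate 3 was highest in each group, and every hairpin library was below its control. The change was -0.87 ± 0.15, the only call among 31 chemokine ligands and receptors. In the WNT list 2 of 52 rose, Lgr5 and Dkk3 (0.88 ± 0.15), a secreted protein of the Dickkopf family, and 1 fell, the receptor Fzd5 (-0.28 ± 0.06). In the IGF list 1 of 19 rose, Igfbp3, and 2 fell: Stc2, a stanniocalcin that restrains release of insulin-like growth factors (-0.08 with hairpin 1 and -0.72 with hairpin 2), and Igfals, the acid-labile subunit of the carrier complex (-0.10 with hairpin 1 and -0.67 with hairpin 2). Both changes were near 0 for hairpin 1. Without control replicate 4 the chemokine, WNT, IGF and Notch lists had no call. Of 26 Notch genes, Jag2 and the coactivator Maml1 (0.27 ± 0.05) rose. Of 25 slits, netrins and their receptors 1 rose, Slit2, a ligand of Robo receptors (0.65 ± 0.09), of 19 ephrins and Eph receptors 1, Ephb1 (0.95 ± 0.17), and none of 30 semaphorins, plexins and neuropilins was called. Cntn2, a contactin, rose by 1.27 ± 0.27. Cntfr, the receptor of ciliary neurotrophic factor, was at 2.68, 7.87, 6.51 and 3.11 CPM in the controls and 8.06, 9.83 and 15.3 CPM (lowest, median, highest) with the hairpins, without overlap, and changed by 1.15 ± 0.22 (1.11 with hairpin 1 and 1.19 with hairpin 2).

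Transcription factors of the homeobox family had 3 rises and 2 falls among 91 tested (5.49% called, against 1.79% of all genes tested). The median was 0.32 over the family and 71 were positive. Tshz2, a zinc finger homeobox factor, was at 2.82, 8.04, 3.47 and 3.88 CPM in control replicates 1 to 4, 5.62, 11.8, 7.18 and 12.2 CPM with hairpin 1 and 6.81, 13.8, 12.4 and 10.7 CPM with hairpin 2. Within each number the hairpins were above the control, and the change was 1.2 ± 0.18; 77.6% of its exons overlap a gene of the opposite strand. Msx3 changed by -1.30 ± 0.25: control replicate 3 had 57.4 CPM against 5.45 to 10.1 CPM in the other controls, and the hairpin libraries ran from 2.84 to 36.1 CPM. Satb1, an organiser of chromatin loops, was at 23.6, 24.3, 30.5 and 27.6 CPM in the controls and 15.7, 18.9 and 23.98 CPM (lowest, median, highest) with the hairpins and changed by -0.45 ± 0.08. Among 449 zinc finger genes 1 was called, Zfp637 (-0.24 ± 0.05).

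Enzymes of triglyceride and retinoid metabolism were among the falls. In the triglyceride list 3 of 32 fell and none rose (9.38% called, against 1.79% of all genes tested). The list as a whole was not lower: its median was 0.04, with 18 positive and 14 negative values. Mogat1, which joins a fatty acid to monoacylglycerol, was at 15.1, 11.2, 12.3 and 6.85 CPM in control replicates 1 to 4, 6.87, 4.33, 5.56 and 4.10 CPM with hairpin 1 and 10.6, 7.59, 8.43 and 5.13 CPM with hairpin 2, changed by -0.80 ± 0.10 and was called in all 12 fits; Acsl3 (-0.29 ± 0.05) and Agpat2 (-0.26 ± 0.05) activate fatty acids and build phosphatidic acid. Acsl3 and Agpat2 were each called in 2 of the 12 fits. The list had Mogat1 as its 1 call when any 1 of the control or hairpin 1 libraries was left out. In the retinoid list 2 of 29 fell (6.90% called), while its median was 0.03, with 15 positive and 14 negative values. Rdh12, a retinaldehyde reductase, was at 37.9, 17.7, 57.2 and 22.7 CPM in control replicates 1 to 4, 31.9, 16.6, 33.9 and 18.7 CPM with hairpin 1 and 16.7, 7.84, 11.6 and 6.78 CPM with hairpin 2, and Aldh1a3, which makes retinoic acid, changed by -0.34 ± 0.07. The retinoid list had no call without control replicate 4. Sptlc3, a subunit of the first enzyme of sphingolipid synthesis, changed by -0.92 ± 0.16, from a level of 3.11, 2.70, 5.91 and 6.23 CPM in the controls. Among 70 glycosyltransferases 3 rose and 3 fell (8.57% called). B3galt2, a galactosyltransferase, was at 0.374, 1.04, 2.81 and 1.53 CPM in control replicates 1 to 4, 2.35, 1.60, 5.04 and 6.36 CPM with hairpin 1 and 2.53, 3.86, 9.91 and 5.44 CPM with hairpin 2 and changed by 1.75 ± 0.28, while Galnt15, which starts O-linked sugar chains, was at 3.45, 2.76, 2.79 and 2.82 CPM in the controls and 1.10, 1.24 and 1.75 CPM (lowest, median, highest) with the hairpins, without overlap. Its change was -1.13 ± 0.17 (-1.03 with hairpin 1 and -1.23 with hairpin 2).

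Solute carriers had 3 rises and 5 falls among 305 tested (2.62% called, near the 1.79% of all genes tested). Slc35d3, a protein of the nucleotide sugar transporter family, was at 46.1, 36.1, 42.03 and 27.9 CPM in control replicates 1 to 4, 26.8, 25.1, 28.01 and 14.6 CPM with hairpin 1 and 29.1, 22.2, 32.1 and 12.8 CPM with hairpin 2. Replicate 4 was lowest in each group, and its change, -0.71 ± 0.09, was nearly equal with hairpin 1 (-0.71) and hairpin 2 (-0.72). Slc6a15, a neutral amino acid transporter, changed by -0.73 ± 0.10 (-0.81 with hairpin 1 and -0.65 with hairpin 2), and Slc15a2, a peptide transporter, by -0.35 ± 0.05 (-0.38 with hairpin 1 and -0.32 with hairpin 2). Of the rises, Slc8a1, the sodium-calcium exchanger, changed by 0.87 ± 0.12. Of 39 calcium, sodium and TRP channel genes 2 rose, Trpm6 (0.79 ± 0.14) and Cacna2d1 (0.66 ± 0.14), and of 60 potassium channel genes 1, Kcnh1 (1.54 ± 0.21), a share of 1.67%, near that of all genes. The level of Kcnh1 was low, 0.202 to 1.35 CPM in the controls and 0.728 to 3.33 CPM with the hairpins. Scin, or scinderin, which severs actin filaments, was at 45.5, 43.4, 38.6 and 49.9 CPM in control replicates 1 to 4, 33.6, 30.3, 27.6 and 34.9 CPM with hairpin 1 and 27.7, 30.2, 26.4 and 25.2 CPM with hairpin 2. All 8 hairpin libraries were below all 4 controls, and it changed by -0.59 ± 0.07. Colgalt2, which puts galactose on collagens, changed by -0.87 ± 0.18 (-0.93 with hairpin 1 and -0.81 with hairpin 2).

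Among abundant genes Serinc3, a multipass membrane protein, changed by -0.40 ± 0.08 and Epcam, the adhesion molecule that binds claudin 7, by -0.25 ± 0.05. Epcam was at 1233, 1119.6, 1857 and 1023 CPM in control replicates 1 to 4, 1173, 949, 1686 and 907 CPM with hairpin 1 and 1041, 921, 1337 and 802 CPM with hairpin 2. The values were -0.16 with hairpin 1 and -0.34 with hairpin 2, every hairpin library was under the control of its number, and the call held in 2 of the 12 fits. Epcam was the only call of the 14 luminal markers. Some other claudins and junction proteins were not called over both hairpins: Cldn3 was at -0.08 ± 0.06, Cldn4 at 0.49 ± 0.17 (edgeR adjusted p = 0.157), Tjp1 at 0.11 ± 0.06, Ocln at 0.01 ± 0.06 and Cdh1 at -0.07 ± 0.05. These 5 were picked after their values were seen, and other junction genes rose: Cdh3, given above, Dsc3, a desmocollin of desmosomes (0.93 ± 0.17), and Nectin1, an adhesion molecule of adherens junctions (0.33 ± 0.06).

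**Figure D4:**
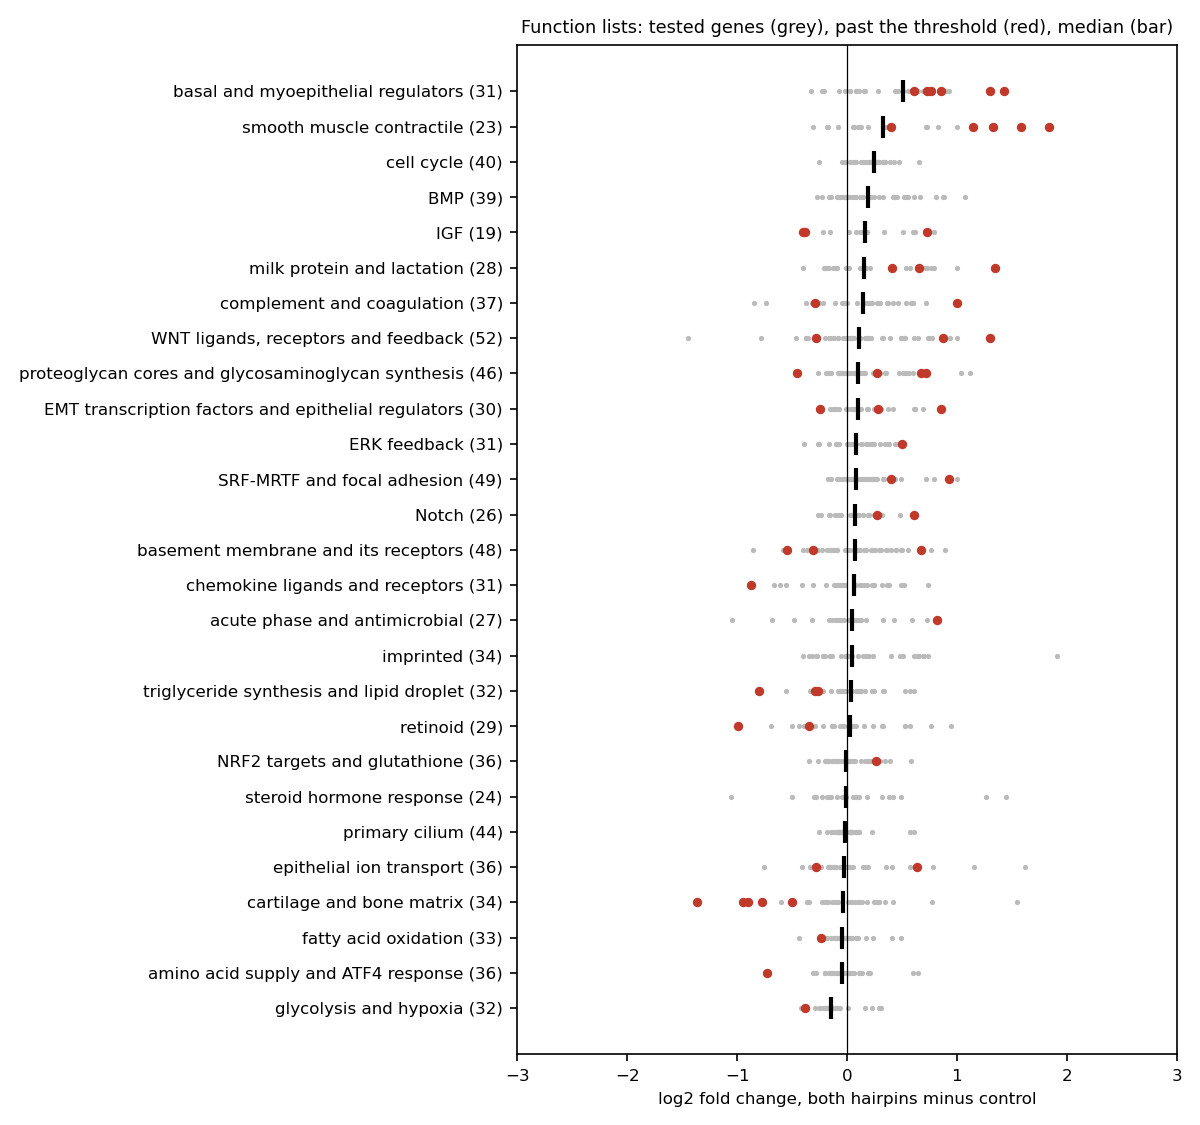
Change over both hairpins (x axis, log2 fold change) of the tested genes of 27 function lists (y axis, number tested in brackets), each point a gene, red where past the threshold and grey where not, with the median of each list as a black bar. Red points lie to the right in the basal, smooth muscle and milk lists and to the left in the cartilage and triglyceride lists, and most lists hold their median within 0.2 of 0.

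The lists and families left most calls outside them. The 27 lists and 49 symbol families together held 88 of the 304 called genes, and 216 were in none. Lists with no call over both hairpins were imprinted genes (34 tested), BMP (39), steroid hormone response (24), primary cilium (44) and cell cycle (40). In the cell cycle list 36 of 40 values were positive with a median of 0.25 (0.35 for hairpin 1 and 0.13 for hairpin 2), and the member of smallest p, Cdt1, which licenses replication, was at 0.35 ± 0.11 (edgeR adjusted p = 0.14). None of 85 cytosolic ribosomal protein genes was called, with a median of -0.14 and 7 positive. The glycolysis and hypoxia list had a median of -0.15 with 6 of 32 positive and 1 fall, Pfkp, a phosphofructokinase (-0.09 with hairpin 1 and -0.68 with hairpin 2). The NRF2 and glutathione list had medians of opposite sign, 0.30 for hairpin 1 and -0.32 for hairpin 2, and 1 call, Keap1, the inhibitor of NRF2, which rose over both hairpins (0.32 with hairpin 1 and 0.20 with hairpin 2). No test of a whole list was made.

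The hairpins differed beyond the spread in 8 of the genes named for size, p or level. Meltf, melanotransferrin, an iron-binding surface protein, was at 268, 153, 279 and 243 CPM in control replicates 1 to 4, 218, 127, 211 and 162 CPM with hairpin 1 and 133, 66.2, 93.1 and 78.00 CPM with hairpin 2. All 8 hairpin libraries were under the control of their number, and hairpin 2 was lower than hairpin 1 in each number. The changes were -0.39 with hairpin 1 and -1.36 with hairpin 2, a difference of -0.97 (95% interval -1.18 to -0.75) with an edgeR adjusted p of 0.0011. Rdh12 (-0.37 with hairpin 1 and -1.61 with hairpin 2), Cdhr4, a cadherin-related protein whose exons share sequence with other genes (-0.36 with hairpin 1 and -1.47 with hairpin 2), Ltbp2, a latent TGF-beta binding protein (-0.16 with hairpin 1 and -0.80 with hairpin 2), and Opa1, which fuses inner mitochondrial membranes (-0.14 with hairpin 1 and -0.50 with hairpin 2), also fell more with hairpin 2. C4b, complement component 4B, rose more with hairpin 2: it was at 54.3, 75.1, 76.2 and 112 CPM in control replicates 1 to 4, 69.8, 132, 108 and 130.2 CPM with hairpin 1 and 152, 212, 276 and 269 CPM with hairpin 2. Its values were 0.47 with hairpin 1 and 1.53 with hairpin 2, and 32.2% of its sequence in windows of 50 bases is shared with other genes. Wfdc18, described with the milk proteins, also rose more with hairpin 2, and Mogat1 fell more with hairpin 1 (-1.09 with hairpin 1 and -0.51 with hairpin 2). For these genes the pooled value is a mean of unequal effects.

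The effect was compared between replicates 1 and 2 and replicates 3 and 4, which differ in depth and in immune transcripts. Lymphocyte markers summed to 5.85 to 11.6 CPM in control replicates 1 and 2 and to 0.215 to 0.822 CPM in control replicates 3 and 4. With hairpin 1 the sums were 5.23 to 6.33 CPM and 0.282 to 0.986 CPM, and with hairpin 2 they were 4.47 to 4.93 CPM and 0.319 to 1.06 CPM. No gene passed a test of the difference between these pairs of replicates with edgeR, while 1017 had an unadjusted p under 0.05. All 304 genes had the same sign in both, a count that the choice of genes over all 12 libraries favours. When replicates 1 and 2 were fitted alone, 25 genes were called, and 24 of them had the same sign in replicates 3 and 4, 17 with an unadjusted p under 0.05. Over all genes 62.8% had the same sign, and 9.34% had the same sign with such a p. Replicates 3 and 4 alone called 5 genes, of which 4 had the same sign in replicates 1 and 2 and 3 also such a p, against 9.76% of all genes. Cldn7 (-2.30 and -2.05), Meltf (-0.70 and -1.03) and Tagln (1.07 and 1.16) were called in each pair alone, on the log2 scale for replicates 1 and 2 and replicates 3 and 4 in that order.

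Some properties that the test did not use were compared between called and tested genes. All 143 higher genes and 98.1% of the lower genes with an annotation were protein coding, against 90.7% of genes tested. The median gene span was 34029 bases for higher, 25740 for lower and 20703 for all tested genes (RefSeq, GRCm38). Called genes lay on every autosome and the X chromosome, from 1.08% of the tested genes of chromosome 2 to 3.18% of those of chromosome 1. Of 16753 pairs of neighbouring tested genes, 6 (0.0358%) had both members called. The number of such pairs among genes picked at random was not computed, so the count and the pairs below are a description only. Scrg1 and Sap30, 3342 bases apart on chromosome 8, both fell, as did H2-DMb2 and H2-DMb1 on chromosome 17, which load peptides on MHC class II and are near copies of each other, and Ltbp2 and the overlapping D030025P21Rik on chromosome 12. Dkk3 and Mical2 on chromosome 7 both rose. Lgr5 and Tspan8 on chromosome 10, and Cd99l2 and Hmgb3 on the X chromosome, changed in opposite directions.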

How the data were processed

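RNA was sequenced from 12 organoid samples in 3 groups of 4. Per the file headers, the deposited table holds whole-number read counts by gene and library, which the authors had not normalized; 25861 blank rows between the 25861 gene rows were left out, and 0 columns of per-sample values were left unused. Per the submitters' processing notes, FastQC 0.74, Trimmomatic 0.39, DESeq2 1.34.0 and the build mm10 were used, with no role stated. The sources used here do not give the aligner, annotation or strand setting, so reads of a gene and an overlapping gene on the other strand cannot be told apart.

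Counts were filtered with filterByExpr by group (17025 genes kept, 8836 left out), scaled by TMM and fitted with edgeR 4.0.16 (glmQLFit, glmQLFTest) over all 12 libraries with group and replicate number. The block is used because the replicate numbers paired the libraries: deviations correlated 0.855 to 0.916 within a number, with no shared animal or day in the labels. Fold changes are log2, ± SE. The code was tested on simulated data. Alternatives used limma 3.58.1, DESeq2 1.42.0, other filters, scalings and samples. Libraries of a group were not duplicates (chi-square per degree of freedom of at least 50.7 in each pair). Two-sided exact permutation of log2 CPM (prior count of 2) exchanged the control within each number (81 arrangements). The tests covered 47 genes, all chosen among those called on the same libraries, which favours a small p, so the values describe these genes and support no call: 27 reached the smallest p, 0.0123, with Benjamini-Hochberg adjusted 0.0215, and the largest was 0.198, for Wfdc18.

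Genes were named by a rule: Cldn7; among called genes with a mean of at least 2 CPM, 1 sign for both hairpins and a proper symbol, the 14 largest changes, 8 smallest p and 4 most abundant in each direction; and up to 4 called members of each list. Other genes were named after their values were seen. A result for 1 called gene is not reported here. The members and lists were chosen with earlier results of these data known. Promoter windows are from RefSeq (GRCm38.p6) and held 12793 of the tested genes; exon overlaps are from GENCODE M21, in which 299 of the 304 called genes were found.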

Additional observations from a re-analysis of the deposited data

Results flagged for a closer look

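Single libraries stood apart from the other 3 of their group for 21 of 306 sets of 4 values (102 called genes in 3 groups, 6.86%); the gap to the nearest value took most of the range, by Dixon's test at the 95% level, and chance gives about 1 in 20. Libraries with the same number often stood apart together. Replicate 4 was low for Fxyd3 in the control (152 CPM), hairpin 1 (122 CPM) and hairpin 2 (136 CPM), for Wfdc18 in the control (179.5 CPM) and hairpin 1 (231 CPM), and for Slc35d3 in hairpin 1 (14.6 CPM). Replicate 4 was high in the control for Myo1c (238 CPM), Cd55 (91.2 CPM) and Colgalt2 (24.6 CPM), in hairpin 1 for Rab21 (76.6 CPM) and in hairpin 2 for Slc12a4 (62.0 CPM). Replicate 3 was high for Col11a1 in the control (1290 CPM) and hairpin 1 (1058 CPM), for Cldn7 in hairpin 1 (44.2 CPM) and for Msx3 in hairpin 2 (7.33 CPM).

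Replicate 2 was high for Cntn2 in the control (52.2 CPM) and hairpin 1 (70.6 CPM) and for Aldh1a3 in hairpin 2 (239 CPM). A2m, a protease inhibitor of plasma, was nearly absent from control replicate 2 (0.394 CPM), while the other controls had 56.5 to 134 CPM. Replicate 1 was low for Lgr5 in the control (3.63 CPM) and for Ephb1 in hairpin 2 (3.70 CPM).

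The effect differed between the hairpins in 8 of the genes named for size, p or level by the test of hairpin 2 minus hairpin 1. On the log2 scale the difference was -0.97 for Meltf, -1.25 for Rdh12, -1.11 for Cdhr4, -0.64 for Ltbp2 and -0.37 for Opa1, each of which fell more with hairpin 2. It was 1.05 for C4b and 0.80 for Wfdc18, which rose more with hairpin 2, and 0.58 for Mogat1, which fell more with hairpin 1.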

How the results depend on the processing

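Numbers are given in the order genes past the threshold, higher, lower, differing between the hairpins, and alike with both; reported were 304, 143, 161, 585 and 204. Without the replicate block they were 1, 0, 1, 1 and 0. DESeq2 with the replicate number gave 1161, 612, 549, 1436 and 769. Replicates 1 and 2 alone gave 25, 15, 10, 84 and 15, and replicates 3 and 4 alone 5, 3, 2, 42 and 1. With both hairpins as 1 group, 48 passed, 29 higher and 19 lower. With no filter on low counts 230 were higher. Leaving out 1 library gave 39 to 554, 23 to 284, 16 to 270, 165 to 672 and 29 to 411. An interval bound of 1.2-fold left 85 alike genes and 2-fold 279; a bound of the pooled change itself, added after the data were seen, left 163. DESeq2 size factors and limma-voom kept the 5 numbers within 1.5 times, with 303 and 256 of the 304 genes called again. All 304 genes kept their sign in each setting, a count favoured because each setting used libraries on which the genes had been chosen. The cause of the changed numbers was not tested. The smallest exact p of 0.0123 limits single-gene permutation tests.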
